A study of Mus musculus with 40 samples.

Results

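The cytosolic ribosomal protein genes were followed across the hypothalamus of 40 mouse strains. Members were taken by symbol: Rpl or Rps followed by a number and at most the letters a, l or x, together with Rpsa, Rplp0, Rplp1, Rplp2 and Fau. Processed copies with names in -ps and the S6 kinases were not members. This gave 83 of the 23955 gene symbols in the count table, 33 of the small and 50 of the large subunit. A few genes of the same proteins have other symbols, such as Rps3a1 with a mean of 37.8 CPM (read counts scaled to library size), and are not members. The members were parted by their values over the BXD lines into 6 genes with 2 levels, 66 genes with a single level and a mean of at least 1 CPM, and 11 genes under 1 CPM.

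The panel held 36 BXD recombinant inbred lines, whose genomes are inbred mixtures of both parental strains, the reciprocal hybrids B6D2F1 and D2B6F1, and the 2 inbred parents C57BL/6J and DBA/2J. Every strain was studied in the basal state, none carried a transgene or received an agent according to the labels, and ages are not stated. Each strain gave 1 library, and the library of a BXD line pooled the RNA of 3 to 6 hypothalami, so the strain is the replicate and the spread between animals of a strain was not measured. By its title, the series was concerned with Fgf15, a hormone of the fibroblast growth factor family, and with glucagon. The libraries held 12.2 to 40.4 M counts each (median 23.6 M), and the members took between 0.220% and 0.377% of the counts of a line, with a median of 0.317%. All 9 hypothalamic neuropeptide genes looked up as markers of the tissue (Pomc, Agrp, Avp, Oxt, Hcrt, Pmch, Trh, Sst and Gal) had a mean of at least 1 CPM, and their sum ran from 387 to 951 CPM over the lines. Summed choroid plexus markers ran from 36.8 to 899 CPM and striatal markers from 117 to 647 CPM. Of the BXD libraries, BXD32 and BXD43 stood lowest and BXD51 highest in the mean level of the members, and correlations and medians over the lines that move by leaving them out are given with and without them. The DBA/2J library lay between the 2 levels of the BXD lines at every one of the 6 genes with 2 levels, as described below.

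A ribosomal protein is a structural part of the small subunit, which reads the mRNA, or of the large subunit, which joins the amino acids. Each ribosome takes about equal numbers of nearly all of them, and their mRNAs are short and abundant. Their transcription starts inside a run of pyrimidines, and the resulting 5′ terminal oligopyrimidine (TOP) tract puts their translation under control of the mTOR kinase. Mammalian genomes also hold many processed copies of these genes, made by reverse transcription of the spliced mRNA, most of which encode no protein. BXD lines are homozygous at almost every locus for the allele of either parent, so a transcript whose level is set by a single local difference can show 2 levels over the lines.

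To show pyrimidine runs near the start site, bases around the annotated start are printed for 7 members with CTTTC and for 1 without it. The windows hold 15 bases before the start and 15 after it, from RefSeq promoters on GRCm38.p6, on the strand of the gene. Capitals mark CTTTC, a short pyrimidine run, wherever it stands in the window. In Rps15a, for example, it lies before the annotated start and does not reach it. The first is a gene with 2 levels, and the next 6 have a single level or lie under 1 CPM. Rps18, with 2 levels, has no CTTTC in this window but holds CTCTT, another pyrimidine run.

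Rps15a: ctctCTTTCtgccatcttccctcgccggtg
Fau: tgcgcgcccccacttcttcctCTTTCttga
Rpl15: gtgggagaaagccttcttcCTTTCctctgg
Rplp2: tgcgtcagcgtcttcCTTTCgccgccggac
Rpl35: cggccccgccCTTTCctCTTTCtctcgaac
Rpl38: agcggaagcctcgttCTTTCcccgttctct
Rps27: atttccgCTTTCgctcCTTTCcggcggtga
Rps18: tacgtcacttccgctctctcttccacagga

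A RefSeq promoter was found for 62 of the 83 members. CTTTC on the coding strand stood in 17 of these 62 windows (27.4%), against 1072 of all 27018 promoter windows of the same length (3.97%). On the other strand it stood in 3.23% of the members' windows, against 3.43% of all windows. Related runs searched in the same way were CTCTT (17.7% of members, 3.95% of all), CTTCC (19.4% and 6.80%), CTTCT (11.3% and 3.99%) and CTTTT (8.06% and 3.03%), all on the coding strand, and these runs can overlap each other in a window. A match describes the letters in the window and is not a mapped start site.

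The level of single members covered a wide range although the ribosome takes their proteins in like numbers. Over the 36 BXD lines, 9 members had a mean of at least 100 CPM, 33 lay between 10 and 100 CPM, and 30 between 1 and 10 CPM. Between genes, levels are compared as CPM per kb of mRNA. The highest were Rps15, a small subunit protein near the decoding site, at 339 CPM per kb, Rpl8 of the peptidyl transferase region at 320 CPM per kb, and Rpl41, the smallest ribosomal protein, at 287 CPM per kb. Rplp1 of the acidic stalk followed at 264 CPM per kb and Rpl4, which lines the exit tunnel, at 242 CPM per kb. The lowest members with any read were Rpl39l at 0.176, Rpl30 at 0.255 and Rpl3l at 0.297 CPM per kb. Rpl10l and Rpl26 had 0 reads in all 40 libraries. A count of 0 allows up to 3 counts in a library, which is 0.0733 CPM in the deepest and 0.248 CPM in the shallowest library, for counting error only.

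The members of the stalk, the flexible arm that recruits translation factors, did not share a level. Rplp1 averaged 132 ± 25.9 CPM, Rplp0 50.8 ± 21.8 CPM and Rplp2 11.2 ± 3.24 CPM (SD, n = 36 lines). Per kb, Rplp0 reached 37.4 and Rplp2 26.6 CPM per kb, against the 264 of Rplp1. The members made as fusions with a ubiquitin-like protein or ubiquitin were low: Fau stood at 9.48 and Rps27a at 3.39 CPM per kb. Among paralogs whose symbol ends in l, Rpl36al had 29.8 CPM per kb, against 3.47 CPM per kb for Rpl36a. Rps27l had 14.7 CPM per kb, against 2.75 CPM per kb for Rps27. The order was the reverse for Rpl3l, known from striated muscle, with 0.297 against 20.4 CPM per kb for Rpl3, and for Rpl39l, known from testis, with 0.176 against 19.0 CPM per kb for Rpl39. Rpl10l, also known from testis, had no read while Rpl10 had 5.17 CPM per kb. Rps4l, a paralog of the X-linked Rps4x, had no matched mRNA length. It averaged 19.0 ± 6.19 CPM, and Rps4x averaged 88.3 ± 7.10 CPM (SD, n = 36 lines).

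The counted level was lower where more of a member's sequence is shared with copies. Each coding sequence was read in windows of 100 bases, the length of a read, and a window counted as shared when the same letters stood in a transcript of another gene of the GENCODE vM21 annotation. Of 81 members with windows, 72 shared at least 1 of them, 26 shared all and 9 shared none, with a median of 72.9% of windows. The other genes were 478, of which 448 are annotated as processed pseudogenes and 20 have a row in the count table. The median level was 3.97 CPM per kb over the 26 members with all windows shared (lowest 0.688, highest 78.6), 26.4 over the 46 with some, and 118 over the 9 with none (lowest 0, highest 223). Spearman's rho between the shared part and the level was -0.49 across the 81 members, which are genes of the same libraries and not independent replicates. Members against this order included Rpl15, with all windows shared and 78.6 CPM per kb. The paralogs Rpl3l, Rpl10l and Rpl39l had none shared and the low levels given above. Rpl26 (45.8% shared, 0 reads), Rpl34 (46.8%, 0.602 CPM per kb) and Rpl30 (61.0%, 0.255 CPM per kb) lay far below the median of members with some windows shared. How reads with several placements were counted is not given in the sources used here, so transcript amount and loss of shared reads cannot be told apart in these levels.

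**Figure D1:**
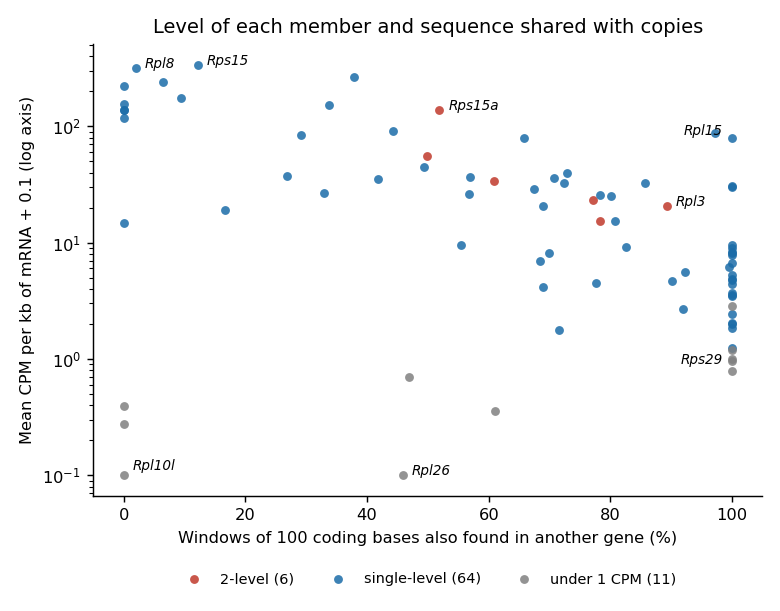
Each point is a member, with the share of its 100-base coding windows found in another gene on the x axis (%) and its mean level over the 36 BXD lines on a logarithmic y axis (CPM per kb of mRNA, with 0.1 added so that 0 can be drawn). Members with 2 levels, a single level and under 1 CPM have their own colours; the median was 3.97 CPM per kb where all windows were shared and 118 where none was.

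Some genes that share windows with a member were counted above it. Gm5148, annotated as protein-coding on chromosome 3, shares 90.6% of the windows of Rps23, a small subunit protein of the decoding centre. It averaged 37.5 CPM over the lines, with 23.1, 38.2 and 45.5 CPM in the lowest, median and highest line. Rps23 itself averaged 0.799 ± 0.142 CPM (SD, n = 36). BC004004, which shares 34.4% of the windows of Rpl21, averaged 59.9 CPM, against 20.6 CPM for Rpl21. Tlcd1 (21.4% of Rpl23a) averaged 24.7 CPM, against 4.48 CPM for Rpl23a, and Uimc1 (56.96% of Rpl29) averaged 26.1 CPM, against 8.95 CPM for Rpl29. These are CPM not divided by length. Rps27rt shares all windows of Rps27 and had 0 reads in all libraries, as had Gm15772 (Rpl26) and Rpl34-ps1 (Rpl34).

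Of the 83 members, 6 had 2 levels over the BXD lines. A gene was placed here when the 36 values, sorted on the log2 CPM scale, were interrupted by a step of 1 log2 unit or more that left 6 lines or more on either side, and the mean was at least 1 CPM. Among all 14488 genes with that mean, 68 had such a step (0.469%). The values of the BXD lines chose these 6 members and are given as a description, while the hybrids and parents had no part in the choice. The widest step inside the limit was that of Rpl21 at 4.43 log2 units and the narrowest that of Rps15a at 1.19. Just outside it lay Fau at 0.88 and Rplp0 at 0.79.

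Rpl21, a large subunit protein encoded on chromosome 5, had 1.30 CPM in the lowest, 1.93 in the median and 78.5 in the highest BXD line. The hybrids had 32.1 CPM in B6D2F1 and 35.7 CPM in D2B6F1, while the C57BL/6J library had 51.3 and the DBA/2J library 11.8. In reads, the lines ran from 22 to 3209. The lower level held 24 lines and ended at 2.26 CPM, and the upper level began at 50.2 CPM.

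Rpl29, a basic protein of the large subunit encoded on chromosome 9, parted the lines evenly, with 18 on each side. The lowest, median and highest line had 0.206, 5.86 and 20.6 CPM, and B6D2F1 had 8.62 and D2B6F1 8.65 CPM, while the C57BL/6J library had 13.8 and the DBA/2J library 3.56. Its lower level, which ended at 0.579 CPM, rests on few reads, from 5 upwards. Rpl14, also a large subunit gene of chromosome 9, ran from 10.1 over 15.98 to 68.6 CPM, with 21 lines below the step. B6D2F1 had 36.2 and D2B6F1 37.4 CPM, while the C57BL/6J library had 51.4 and the DBA/2J library 22.8.

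Rpl3, the large subunit protein close to the peptidyl transferase centre, is encoded on chromosome 15. It had 2.66, 3.61 and 64.3 CPM in the lowest, median and highest line, with 20 lines below the step. B6D2F1 had 30.2 and D2B6F1 31.8 CPM, while the C57BL/6J library had 46.6 and the DBA/2J library 12.2. Both genes of the small subunit differed from each other in the split. Rps18, which lies in the major histocompatibility region of chromosome 17, had only 9 lines below its step and ran from 1.34 over 39.7 to 47.6 CPM. B6D2F1 had 19.0 and D2B6F1 23.2 CPM, while the C57BL/6J library had 32.5 and the DBA/2J library 7.95. Rps15a of chromosome 7 had 22 lines below its step and ran from 44.6 over 55.3 to 156 CPM. B6D2F1 had 107 and D2B6F1 101 CPM, while the C57BL/6J library had 133 and the DBA/2J library 67.5.

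**Figure D2:**
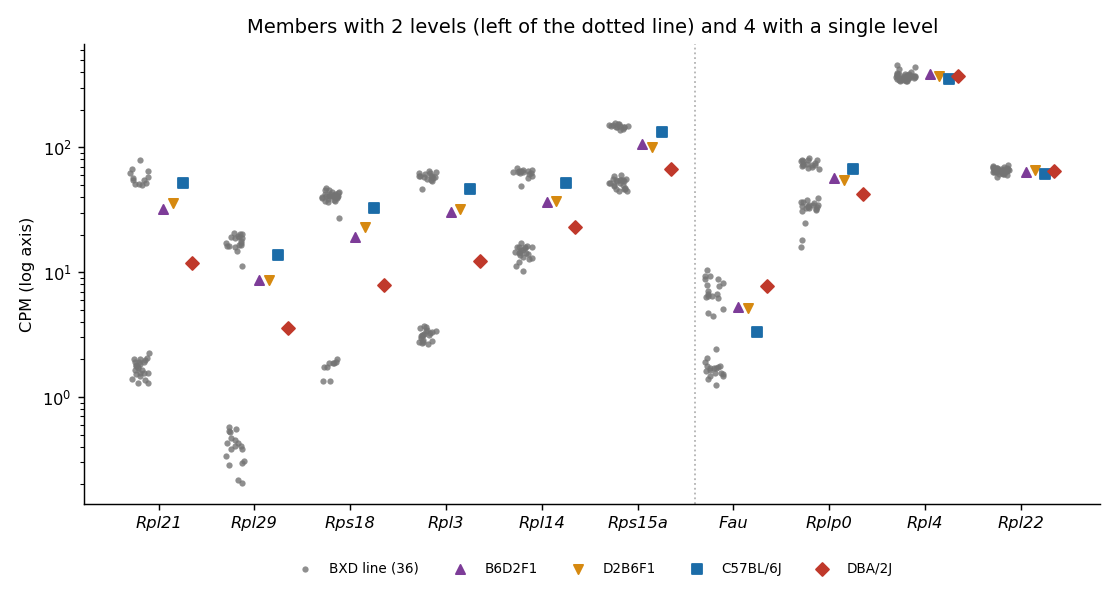
CPM on a logarithmic y axis for the 6 members with 2 levels, left of the dotted line, and for Fau, Rplp0, Rpl4 and Rpl22 with a single level. Grey points are the 36 BXD lines, and the coloured marks are the single libraries of B6D2F1, D2B6F1, C57BL/6J and DBA/2J; at all 6 genes both hybrids lie between C57BL/6J, which is higher, and DBA/2J.

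The libraries of the parents and hybrids, not used in the choice, showed the same order 6 times. The lines carry alleles of these parents. A parental difference with the hybrids between therefore goes with a choice by 2 levels and is no separate support. C57BL/6J was higher than DBA/2J at all 6 genes, and both hybrids lay between the parents at all 6. The mean of the hybrids divided by the mean of the parents ran from 0.991 to 1.07. C57BL/6J stood at or above the lower end of the upper level at 5 of the 6 genes, the exception being Rps15a with 133 CPM where the upper level began at 137 CPM. DBA/2J stood inside the empty interval at all 6, at 0.0952 to 0.282 of the way from its lower to its upper edge in CPM. The ratio of hybrids to parents therefore does not measure a midpoint of the 2 levels. With 1 library for each of these strains, the order has no replicate check.

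The 6 genes parted the lines in different ways. Rpl29 and Rpl14, both on chromosome 9, were on the same side in 11 of the 36 lines. For the other pairs of the 6 genes the number of lines on the same side lay between 11 for Rpl21 with Rps18 and 25 for Rpl3 with Rpl14. BXD51 had the highest Rpl21 of all lines at 78.5 CPM and the highest Rps18 at 47.6 CPM, but stood at the lower level for Rpl3 with 3.40 CPM and for Rpl14 with 16.3 CPM.

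Genes with the most similar pattern over the 36 lines lay mostly on the same chromosome as the member. Likeness was measured as Pearson's r of log2 CPM against every non-member with a mean of at least 1 CPM, and it is given as a description, because the lines of such a gene form 2 clusters and the pooled value mostly measures whether both genes part the same lines. For Rpl29 the nearest were Abhd14a (r = 0.98), Poc1a (0.95) and Ppm1m (0.94), all on chromosome 9 with 1 to 5 protein-coding genes between. For Rpl14 they were Acaa1a (0.96), Entpd3 (0.94) and Ulk4 (0.92), all on chromosome 9. For Rpl3 they were Cbx7 (0.98), Card10 (-0.96, moving the opposite way) and Mgat3 (0.95), all on chromosome 15. For Rps15a they were Coq7 (0.96), Arl6ip1 (0.96) and Tmc7 (0.95), all on chromosome 7. Rpl21 had weaker matches, with Cpsf4 (-0.79), Eif2ak1 (0.78) and Zkscan5 (0.76), all on chromosome 5. For Rps18 they were AA388235 (0.99) and the class I histocompatibility genes H2-K2 (0.98) and H2-Bl (0.98), the last 2 on chromosome 17 in the annotation, which has no entry for AA388235.

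Inside the levels r was weaker for the best match of each gene, to different degrees. Rpl21 and Cpsf4 had r = 0.16 within 24 lines below the step and -0.71 within 12 above it. Rpl14 and Acaa1a had r = 0.62 within 21 lines below and 0.35 within 15 above. For Rpl29 and Abhd14a, r was 0.34 within the 18 lines below the step and 0.73 within the 18 above it. For Rpl3 and Cbx7, r was -0.19 within 20 lines below and 0.40 within 16 above. For Rps15a and Coq7, r was 0.11 within 22 lines below and -0.14 within 14 above, and for Rps18 and AA388235 it was 0.28 within 9 below and 0.13 within 27 above. Counting the best match alone, 5 of the 6 genes with 2 levels had it on their own chromosome, the sixth being Rps18 with its unplaced match. The same count was 9 of the 66 single-level members (13.6%), against 2392 of all 14366 genes with a chromosome (16.7%). Of the single-level members, 4 had at least 6 of their 10 best matches on their own chromosome. These were Fau with 8 (the best being Neat1, r = -0.96), Rps6 with 8 (Ccdc171, 0.87), Rpsa with 7 (Acaa1a, 0.83) and Rplp0 with 6 (1500011B03Rik, 0.93).

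Sharing windows with other genes was common among members with 2 levels and among single-level members. Each symbol of the 6 genes with 2 levels is that of a protein-coding gene in the annotation and not of a copy. All 6 of them shared windows with other genes, at 49.9% to 89.3% of windows with a median of 69.0%, but so did 58 of 64 single-level members with windows, with a median of 75.2%. Rpl21 shared windows with 40 other genes and Rpl29 with 27, whereas Rpl14 shared them with 1. None of the 6 shared all of its windows, which 21 of the 64 single-level members did. The part of copies in the 2 levels was not tested.

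Rps15a had a copy in the count table that was lowest in the lines where Rps15a was highest. Rps15a-ps6, a processed copy on chromosome 11, is identical to the coding sequence of Rps15a at 385 of 390 bases (98.7%), and Rps15a-ps4, on chromosome 4, at 381 of 390 (97.7%). Bases 105 to 164 of the coding sequence, counted from the start codon on GRCm38, are shown for all 3, since they hold several of the differences. Capitals in the copies mark bases that differ from Rps15a.

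Rps15a: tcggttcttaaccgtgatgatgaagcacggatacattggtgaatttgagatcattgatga
Rps15a-ps6: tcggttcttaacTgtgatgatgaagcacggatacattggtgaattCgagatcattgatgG
Rps15a-ps4: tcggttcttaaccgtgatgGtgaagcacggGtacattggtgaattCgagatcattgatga

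The copy Rps15a-ps6 had 0.359, 2.82 and 4.89 CPM in the lowest, median and highest BXD line. B6D2F1 had 2.62 and D2B6F1 2.26 CPM, while the C57BL/6J library had 1.03 and the DBA/2J library 2.69. The 14 lines above the Rps15a step were the 14 lines with the least Rps15a-ps6, with at most 1.69 CPM, while the other 22 lines had at least 2.28 CPM. Within the 14 lines r between both genes was -0.35, and within the 22 it was 0.49. The copy's counts were small beside those of Rps15a: the sum of both ran from 47.6 over 58.7 to 157 CPM and still held a step of 1.09 log2 units. For the other genes with shared windows, where both they and the member had a mean of at least 1 CPM, r over the 36 lines stayed near 0, from Med21 with Rps26 (r = -0.14) to BC004004 with Rpl21 (0.017).

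**Figure D3:**
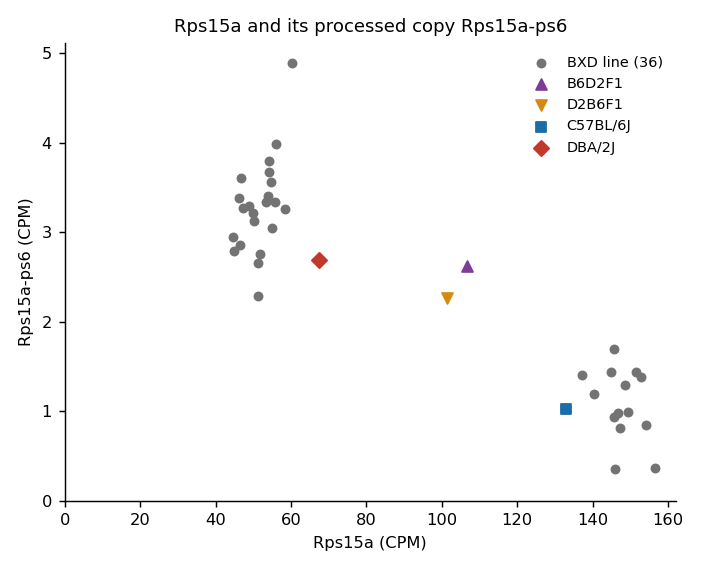
Level of Rps15a on the x axis and of its processed copy Rps15a-ps6 on the y axis, both in CPM, with a point for each of 36 BXD lines and a coloured mark for each hybrid and parent. The 14 lines with the most Rps15a have at most 1.69 CPM of the copy, and the other 22 have at least 2.28 CPM.

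Most single-level members varied more between lines than the median gene did. The SD of log2 CPM over the 36 lines had a median of 0.23 over the 66 members, against 0.15 over all genes with at least 1 CPM, and 58 of the 66 lay above that all-gene median. Counting error alone would give a median SD of 0.081 for these members. The genes were not matched for level: the median was 11.2 CPM over all 83 members, the 11 under 1 CPM included, and 27.7 CPM over all genes with at least 1 CPM. Without BXD32, BXD43 and BXD51 the members' median SD was 0.17. The all-gene median of 0.15 is from all 36 lines, so it cannot be set against this value. The most variable was Fau, the fusion gene, with an SD of 1.07 and with 1.25, 3.45 and 10.4 CPM in the lowest, median and highest line. After it came Rpsa, the laminin-binding protein of the small subunit (SD 0.68, from 17.3 to 87.0 CPM), Rplp0 of the stalk (0.67, from 16.04 to 82.2 CPM), Rps6, the substrate of the S6 kinases (0.58, from 2.11 to 7.12 CPM), and Rps2 (0.52, from 1.70 to 8.30 CPM). The first 4 of these are the 4 with most of their best matches on their own chromosome. The least variable were Rpl22 (0.069, from 58.1 to 72.0 CPM), Rpl7 (0.092), Rpl4 (0.097), Rpl27a (0.11) and Rps4x (0.12).

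**Figure D4:**
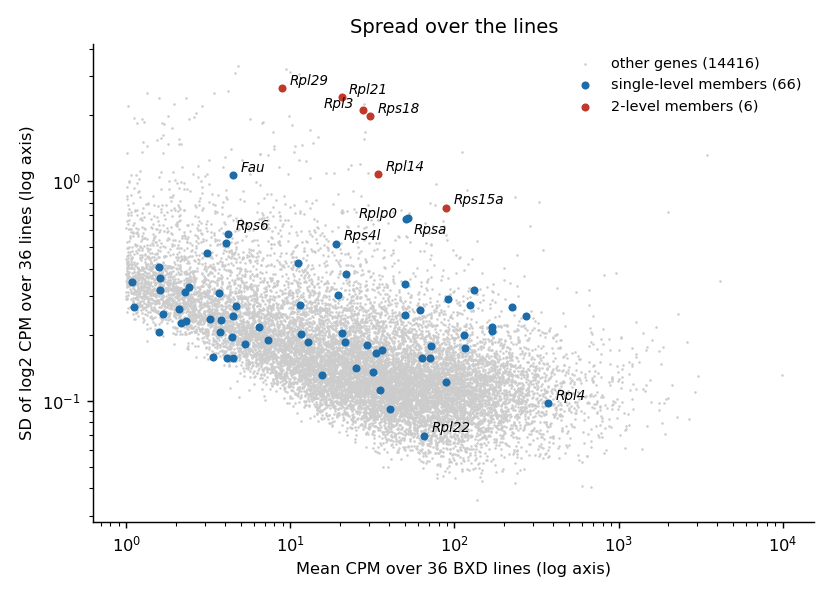
SD of log2 CPM over the 36 BXD lines against the mean CPM, both on logarithmic axes, for the 66 single-level members, the 6 members with 2 levels and the other genes with a mean of at least 1 CPM. Of the 66 single-level members, 58 lie above the all-gene median SD of 0.15. The 66 run from Rpl22 at 0.069 to Fau at 1.07.

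Many single-level members moved together from line to line. Their summed level was 2955 CPM in the median line, 2096 CPM in BXD32, 2168 CPM in BXD43 and 3493 CPM in BXD51. The hybrids had 3072 CPM in B6D2F1 and 3071 CPM in D2B6F1, both above the median line and above most lines. The C57BL/6J library had 2944 and the DBA/2J library 2902, slightly below the median line. All 4 libraries lay inside the range of the lines. The median r over the 666 pairs of 37 members with at least 10 CPM was 0.43, with 81.4% of pairs above 0. Without BXD32, BXD43 and BXD51 the median was 0.25, with 80.2% of pairs above 0. The mean log2 level of the 27 small subunit members and that of the 39 large subunit members had r = 0.84 over the lines, and 0.61 without those 3 lines.

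A member was scored against the mean of all 66, to which each contributes. The closest were Rps21 (r = 0.94), Rpl8 (0.94), Rpl32 (0.91), Rpl13a (0.91) and Rplp1 (0.91). A few members did not go with the rest: Rpl15 (-0.34), Rpl23a (-0.34), which binds the signal recognition particle, Rpl5 (-0.32) of the 5S particle, Rpl23 (-0.20) and Rpl4 (-0.19) had negative values. Rps24 (0.023) and Rpl22 (0.082) stayed near 0. In all, 60 of the 66 had a positive value.

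The shared movement went with annotated exon length. Length here is that of all exons of a gene in the annotation, merged over its transcripts, and not of a single mRNA. Short and long transcripts stand for genes with under 1000 and over 5000 such bases and a mean of at least 10 CPM. Over the 36 lines, the mean of the 66 members had r = 0.95 (Spearman's rho 0.92) with the mean of 114 other transcripts under 1000 bases, and 0.92 both without the 2 lines farthest from the median and without BXD32, BXD43 and BXD51. With 5242 transcripts over 5000 bases r was -0.86 (rho -0.83), and -0.80 without the 3 lines. BXD32, at -0.45 log2 units from the mean over lines for the members, stood at -0.24 for the short transcripts, and BXD51, at 0.32 for the members, stood at 0.29 for the short transcripts. Only the members were removed from both lists, so copies and ribosomal protein genes with other symbols can stand in them. These correlations carry no test, since they are over the same libraries and the same scaling. The library total had r = 0.28 (rho 0.42). The part of length and RNA quality in the members' shared level was not tested.

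**Figure D5:**
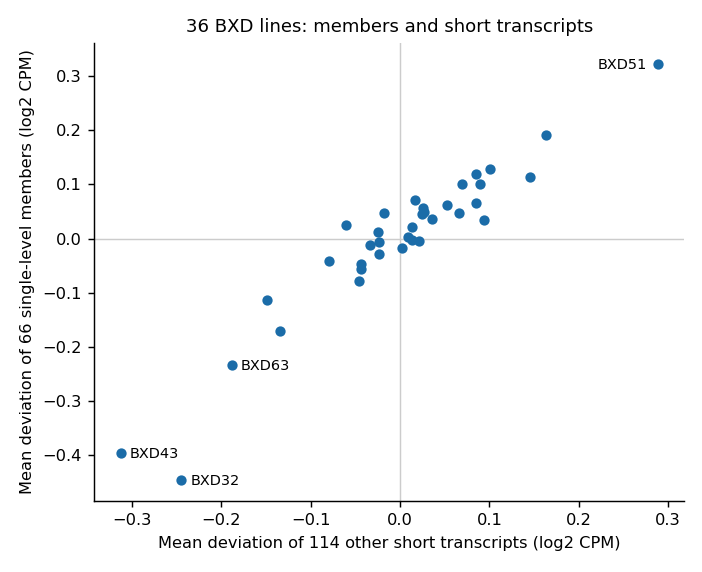
Each point is 1 of the 36 BXD lines. The x axis gives the mean deviation of 114 short transcripts that are not members, and the y axis that of the 66 single-level members. Both are in log2 CPM relative to the mean over lines. BXD32 and BXD43 lie lowest, BXD51 highest, and r is 0.95 over all lines.

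Other genes of translation followed the members to different degrees. The mitochondrial ribosome, encoded by a separate gene family (74 of 76 listed genes at 1 CPM or more), had r = 0.93 with the members' mean (0.82 without the 3 lines), and 61 of the 74 had a positive r. Translation factors with TOP tracts, such as the elongation factors Eef1a1 and Eef2 (26 of 27 at 1 CPM), had r = 0.89 (0.72 without the 3 lines), with 17 of the 26 positive. The 30 genes of ribosome assembly, such as Ncl and Npm1, had r = 0.61, and 0.30 without the 3 lines. The 18 genes of TOR and S6 kinase signalling, which acts on ribosome production and on TOP mRNAs, had r = 0.33, and 0.094 without the 3 lines.

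Markers of cell types went with the members' mean to different degrees, and most sets had values near 0. The 9 hypothalamic neuropeptide genes had r = 0.73 (rho 0.83, 0.79 without the 3 lines), all 9 of them positive. Marker genes were not removed from the short transcripts described above, and the part of transcript length in this value was not tested. Ependymal and tanycyte markers had r = 0.49 (0.63 without the 3 lines), and summed 70.8 to 125 CPM. Choroid plexus markers, of which Folr1 and Kcne2 were under 1 CPM, had r = -0.40, and -0.0068 without the 2 lines farthest from the median and -0.19 without the 3 lines. Neuronal (-0.16), astrocytic (0.055), oligodendrocytic (0.19), microglial (0.21), endothelial (0.074), striatal (0.022), thalamic (0.0078) and pituitary (-0.056) markers had values nearer 0. Without the 3 lines r was -0.38 for striatal, -0.32 for thalamic, -0.32 for neuronal, -0.17 for microglial and 0.23 for pituitary markers, and 0.12 for astrocytic, 0.21 for oligodendrocytic and 0.15 for endothelial ones. Of the blood markers 1 of 5 reached 1 CPM, and no value is given. The part of cell composition in the members' level was not tested, and fewer cells of a type and less RNA per cell cannot be told apart in these bulk samples.

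Between the groups of strains, no member was called. For the 36 BXD lines against the 4 libraries of hybrids and parents, edgeR's quasi-likelihood test called 0 of 16198 genes (0%) at an adjusted p under 0.05. Unadjusted p under 0.05 was found for 163 genes with edgeR and 155 with DESeq2, which also called 0. Of the 79 members tested, 0 were called and 2 had an unadjusted p under 0.05. Their median log2 difference was -0.041, against 0.003 over all genes. The 3 with the smallest p were Rps16, Rps23 and Rps28. Rps16 averaged 0.764 ± 0.192 CPM in the lines (SD, n = 36) and 1.04 ± 0.288 CPM in the 4 other libraries, a log2 difference of -0.44 ± 0.18 (SE, edgeR adjusted p = 1.00). Rps23 averaged 0.799 ± 0.142 CPM in the lines and 1.04 ± 0.400 CPM in the others, a difference of -0.37 ± 0.15, which was -0.069 without DBA/2J. Rps28 averaged 2.42 ± 0.497 CPM in the lines and 1.94 ± 0.199 CPM in the others, a difference of 0.32 ± 0.16.

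For the 2 hybrids against the 38 inbred libraries, edgeR called 0 of 16434 genes (0%), with 109 at an unadjusted p under 0.05, and DESeq2 called 0, with 100. Of the 79 members tested, 0 were called and 1 had an unadjusted p under 0.05. The log2 difference was above 0 for 65 of the 79 members, with a median of 0.086, against 46.8% of all genes and a median of -0.006. The members share these 2 libraries and move together, so this count is a description. Rps13 had the smallest p, with 1.58 ± 0.322 CPM in the hybrids (SD, n = 2) and 1.11 ± 0.229 CPM in the inbred libraries (SD, n = 38), a log2 difference of 0.51 ± 0.20 (SE, edgeR adjusted p = 1.00), which was 0.28 without D2B6F1. Rpl39 had 13.99 ± 1.62 CPM in the hybrids and 11.6 ± 1.46 CPM in the inbred libraries, a difference of 0.26 ± 0.13, which was 0.14 without B6D2F1. Rps16 had 1.10 ± 0.3004 CPM in the hybrids and 0.775 ± 0.203 CPM in the inbred libraries, a difference of 0.49 ± 0.25, which was 0.19 without B6D2F1 and 0.75 without D2B6F1.

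Over the 36 lines no member was called for following Fgf15. The slope of each gene on log2 Fgf15 was called for 1 of 14994 genes (0.00667%) by edgeR, and that gene was no member, with 756 genes at an unadjusted p under 0.05. Of the 75 members tested, 0 were called and 1 had an unadjusted p under 0.05. The median slope of the members was 0.019, against 0.001 over all genes, and -0.010 without BXD32, BXD43 and BXD51. The smallest p belonged to Rps4l, with a slope on log2 Fgf15 of -0.22 (SE 0.089, edgeR adjusted p = 0.94). Rpl6 followed with 0.049 ± 0.025 (edgeR adjusted p = 0.99), and 0.026 without those 3 lines.

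Between the parents, differences of at least 1 log2 unit with at least 5 CPM in either parent were counted, without a test. Of 12157 genes, 77 passed (0.633%), 59 with the higher value in C57BL/6J and 18 with the higher value in DBA/2J. Of 48 members that could pass, 6 did. Higher in C57BL/6J were 5 of the genes with 2 levels: Rpl21 by 2.12 log2 units, Rps18 by 2.02, Rpl29 by 1.93, Rpl3 by 1.93 and Rpl14 by 1.17. Rps15a, the remaining gene with 2 levels, lay just under the limit at 0.98. At all 6 genes with 2 levels the single DBA/2J library lay between the levels of the lines. The parental difference was smaller than the step of the lines at each, which was 4.43 log2 units for Rpl21 and 1.19 for Rps15a. The only member past the limit in the other direction was Fau, at -1.21 log2 units, with 3.32 CPM in the C57BL/6J library and 7.80 in the DBA/2J library. Both hybrids lay between, with 5.28 CPM in B6D2F1 and 5.20 CPM in D2B6F1. The standard error from counting alone was 0.091 log2 units for Rpl21 and 0.19 for Fau. Over the 48 members the median difference was 0.018 log2 units, against 0.004 over all genes.

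Between B6D2F1 and D2B6F1, which differ in the direction of the cross, 5 of 12126 genes passed the same limits (0.0412%) and 0 of 50 members. Among positive differences, Rpl39 had 15.1 CPM in B6D2F1 and 12.8 CPM in D2B6F1 (0.24 log2 units). The largest negative differences were those of Rps2, with 3.37 CPM in B6D2F1 and 6.30 CPM in D2B6F1 (-0.88 log2 units), Rps18 (-0.29) and Rps27l (-0.26). The standard error from counting was 0.10 log2 units for Rpl39 and 0.18 for Rps2.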

How the data were processed

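Hypothalamic mRNA libraries of 40 strains were made with a stranded kit and read as 100-base single ends, per the labels' protocols. Per the submitters' processing notes, TopHat2 2.0.8, HTSeq 0.5.4p3 and DESeq were used with mm9. The authors deposited a table of whole-number read counts per gene, used for every result, and a normalized table whose signal is counts divided by the authors by a factor per library (100% of values whole multiples within 0.01), used for alternatives. Both tables list 15249 genes, but 36.5% of the reads recovered from the normalized table equal the raw count, so they do not hold the same counts. How either table was filtered and how multiply placed reads were treated is not given in the sources used here.

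CPM are counts over the library total times its TMM factor, with a prior count of 2 on the log2 scale. The 3 comparisons used the robust quasi-likelihood test of edgeR 4.0.16 (R 4.3.3) after filterByExpr, with Benjamini-Hochberg adjustment over all genes, and DESeq2 1.42.0 as the other tool. They were tested on simulated data. Strains are the replicates, with 1 library each. Chromosomes, lengths and coding sequences came from GENCODE vM21 on GRCm38, which is not the build of the counts, so no coordinates are given. All 83 member symbols matched it.

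The members and gene lists were chosen with earlier results of these data known. The genes named are those with 2 levels and their 3 nearest genes, the members called or else the 3 with the smallest p in each comparison, the 5 highest and lowest per kb, the 5 most and least variable, those past the limits between parents or hybrids (else the 3 largest each way), and the paralog, stalk and ubiquitin-fusion members. Other members named as examples were chosen after their values were seen. A few members that this rule names are not reported here.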

Additional observations from a re-analysis of the deposited data

How the results depend on the processing

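The 6 genes with 2 levels were the same with a prior count of 0.5, with 4 or 8 lines required a side, with DESeq2 size factors, in the normalized table, and without BXD32, BXD43 and BXD51 (an alternative chosen after seeing the data). With a step of at least 0.5 log2 units there were 8 members (Fau and Rplp0 added) and 191 genes in all, and with a step of at least 2 there were 4 members and 37 genes in all. For the BXD lines against the 4 other libraries, 1 gene was called without those 3 lines, and leaving out each of the 4 libraries gave 0 to 0. For the hybrids against the inbred libraries, 1 was called without those 3 lines, and leaving out a hybrid gave 0 to 1, the 1 without D2B6F1. The slope on Fgf15 was called for 4 genes with no filter on low counts, for 2 with reads recovered from the normalized table, and for 2 without the 3 lines. None of these calls was a member. With a limit of 0.5 log2 units, 10 members passed between the parents and 2 between the hybrids. The cause of these changes was not tested, apart from the wider limits. No result reversed its direction among the named members in the 3 comparisons. No paired analysis was possible because the groups compared share no more than 1 replicate number. Members under 10 CPM rest on few reads, and 11 members lie under 1 CPM.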
